A study of Cladosporium europaeum with 50 samples.

Results

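The genes described here are those that Cladosporium europaeum strain F32, a filamentous fungus isolated from PCB-polluted soil, carries for taking apart pectin and ferulic acid esters and for using the sugar acid galacturonate, as far as the authors listed them as changed by polychlorinated biphenyls (PCB). They were chosen by 7 words in the deposited annotation (pectin, pectate, polygalacturonase, rhamnogalacturon, feruloyl, rhamnosidase and galactonate), which only genes with a listed change carry, so their fold changes and adjusted p-values were used to choose them and are given as a description. The rule found 6 genes of 705 annotated and 920 listed ones, in 8 of 1102 gene and comparison combinations. The word feruloyl found 2 genes, and pectate, polygalacturonase, rhamnosidase and galactonate found 1 each, while pectin and rhamnogalacturon found 0. Genes of these families that no comparison listed are not analysed here.

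Mycelium was grown in a mineral medium holding 5 g/L glucose with either no PCB or 6 mg/L of PCB52, PCB101, PCB153 or PCB180, and polyadenylated RNA was sequenced after 24 h and after 96 h. The 50 samples form 10 groups of 5 replicates of this one strain, every group having glucose. Each congener is compared with the control of its own hour, and the authors also compared PCB180, a heptachlorobiphenyl, directly with PCB153, a hexachlorobiphenyl, at 96 h. The values are the authors' comparisons, with no values per sample and no library totals, so the value of each gene in each sample and the depth of the libraries are not given here. The labels do not say whether replicates were separate cultures, so p-values may measure only technical spread.

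Pectin is a plant cell wall polymer whose backbone is built largely from galacturonic acid, with stretches of alternating rhamnose and galacturonic acid that carry side chains of galactan and arabinan. Fungi secrete polygalacturonases, which cut the backbone by hydrolysis, and pectate lyases, which cut it by elimination, while rhamnosidases and feruloyl esterases remove rhamnose and ferulic acid. Feruloyl esterases also act on xylan, and rhamnosidases also act on other plant glycosides. In filamentous fungi such as Aspergillus niger and Trichoderma reesei, freed galacturonate is reduced to L-galactonate, dehydrated by L-galactonate dehydratase, split by L-threo-3-deoxy-hexulosonate aldolase into pyruvate and L-glyceraldehyde, and the latter is reduced to glycerol. Glucose is a repressor of many such genes in filamentous fungi, and glucose is the carbon source that the labels name for this medium.

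All 6 genes were listed for PCB180 at 96 h, 5 as risen and 1 as fallen. A gene is listed for a congener when its adjusted p is under 0.05 and the size of its log2 fold change is 1 or more, and "rose" and "fell" refer to genes listed in this way. Of the 11313 genes tested for PCB180, 4.59% were listed as risen and 2.67% as fallen, and since listing chose the members nothing is read from that share. At 96 h PCB153 had 1 member that fell and 0 that rose, beside 0.579% of 10874 tested genes listed as fallen and 1.82% as risen. The direct comparison of PCB180 with PCB153 listed a single gene, 0.00884% of the genes tested, and that gene is a member. Its log2 fold change there was 0.86, so the limit of 1 was not applied and this share is not like the others. At 96 h 0 members were listed for PCB52 or PCB101, which listed 1 and 9 of 11313 tested genes in all. At 24 h 0 were listed for PCB52, PCB153 or PCB180, which listed 1, 6 and 2 of 11313. With so few genes listed, nothing about the members is read from these zeros. The authors' deposited table held no PCB101 rows at 24 h. The members had a median log2 fold change of 1.08 for PCB180, beside 1.23 over the 821 genes listed, and the 5 that rose had 1.11, beside 1.59 over the 519 listed genes that rose. Mycelium was sequenced in bulk, so a larger share of cells with a transcript and more of it per cell cannot be told apart.

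**Figure D1:**
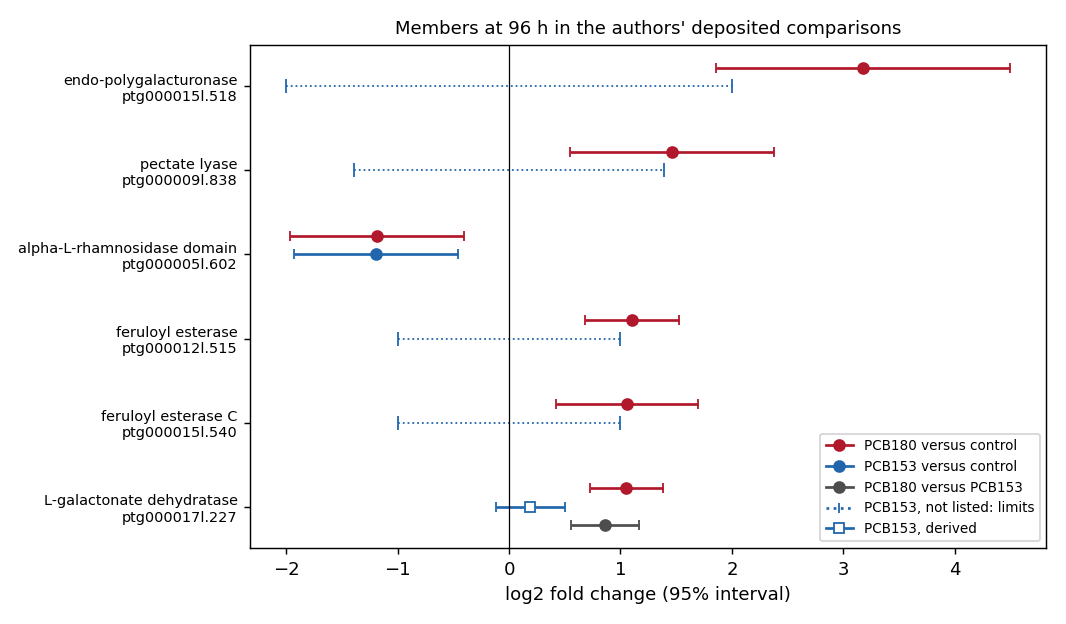
Log2 fold changes at 96 h (x axis) of the 6 genes (y axis), with bars for the 95% interval from the deposited standard error. Filled points are deposited values for PCB180 versus control (red), PCB153 versus control (blue) and PCB180 versus PCB153 (grey). Dotted lines span the estimates with which a gene would have gone unlisted for PCB153. The open square is the PCB153 value derived for L-galactonate dehydratase, 0.19.

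Of the enzymes that cut the pectin backbone, both rose under PCB180. For endo-polygalacturonase (ptg000015l.518, EC 3.2.1.15) the authors' deposited table gives a 9.05-fold rise, 3.18 ± 0.67 as log2 fold change and standard error, at an adjusted p of 0.000312. This was the 8th largest absolute change of the 821 genes listed for PCB180. Its 95% interval ran from 1.86 to 4.498 on the log2 scale, or from 3.63-fold to 22.6-fold. The gene had a mean normalized count of 3603 over the study in the authors' deposited table, a value that was identical in every comparison, yet its standard error ranked 769 of 821 from the smallest. Pectate lyase (ptg000009l.838, EC 4.2.2.2) rose 2.75-fold, and the authors' deposited table gives its log2 fold change as 1.46 ± 0.47, with 0.0263 as adjusted p. It was the most thinly counted member, with a mean normalized count of 53.3 in the authors' deposited table. Its interval ran from 0.54 to 2.38 on the log2 scale, and whether its change differed from that of the endo-polygalacturonase was not tested.

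Both feruloyl esterases, which release ferulic acid from the sugars it is bound to, rose by similar amounts under PCB180. The feruloyl esterase ptg000012l.515 (EC 3.1.1.73) rose 2.15-fold, with a log2 fold change of 1.11 ± 0.22 and an adjusted p, in the authors' deposited table, of 5.12e-05. Its mean normalized count of 13512 was the 10th highest of the 821 genes and its standard error the 7th smallest. Feruloyl esterase C (ptg000015l.540, EC 3.1.1.73) had a log2 fold change of 1.06 ± 0.32, a 2.08-fold rise with an adjusted p of 0.0200 and a mean normalized count of 183 in the authors' deposited table. The intervals, from 0.69 to 1.53 and from 0.42 to 1.69, lay almost on top of each other. Whether reads of one esterase could have been counted for the other was not tested. Counts are not scaled to gene length, so they show how many reads stood behind a value and not which gene was expressed more.

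The member that fell is a protein known by an alpha-L-rhamnosidase six-hairpin glycosidase domain (ptg000005l.602), from a family that removes terminal rhamnose. In the authors' deposited table its log2 fold change was -1.18 ± 0.40 for PCB180, with an adjusted p of 0.0353, and -1.19 ± 0.38 for PCB153, with an adjusted p of 0.0473. It thus had 2.27-fold and 2.29-fold lower levels than the control, and it was the only member listed for both congeners against control. These comparisons share the 96 h control libraries, so one value is no independent check of the other. The difference, PCB180 minus PCB153, was 0.0085 on the log2 scale with a 95% interval from -0.75 to 0.77, taking a correlation of 0.5 between the comparisons. A difference of up to about that size in either direction was not detectable. Both adjusted p-values lay close to 0.05, and neither was under 0.01.

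L-galactonate dehydratase (ptg000017l.227), the enzyme of the second step from galacturonate, had the most precise change of the group. It rose 2.08-fold under PCB180, and the authors' deposited table gives its log2 fold change as 1.05 ± 0.17, with 1.61e-07 as adjusted p. Its standard error was the smallest of all 821 genes listed for PCB180, and its unadjusted p ranked 15. Its log2 fold change was also the member value nearest to the listing limit of 1. In the direct comparison it was 1.82-fold higher under PCB180 than under PCB153, which the authors' deposited table gives as 0.86 ± 0.16 on the log2 scale, with a 95% interval from 0.55 to 1.17 and an adjusted p of 0.000468. This value lies under 1, below the smallest absolute value in any comparison with control.

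**Figure D2:**
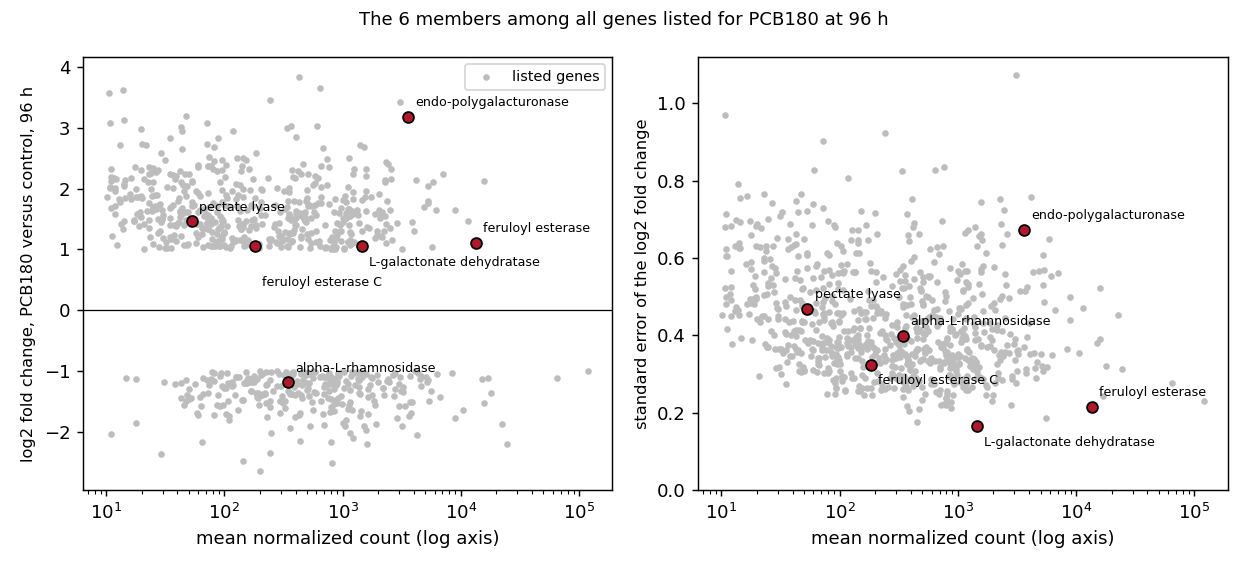
The 821 genes listed for PCB180 at 96 h (grey) and the 6 members (red) by mean normalized count (x axis, log scale) against log2 fold change (left, y axis) and against the standard error of that change (right, y axis). Endo-polygalacturonase stands among the largest changes at 3.18 with a wide standard error of 0.67, and L-galactonate dehydratase has the smallest standard error, 0.17.

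The deposited values also bound the estimates of these genes under the other congeners, while the true changes may lie beyond those bounds. The mean normalized count of a gene was the same in every comparison, and if the comparisons came from a single fit, the PCB153 value of L-galactonate dehydratase is the PCB180 value less the direct one, a log2 fold change of 0.19, or 1.14-fold. With the standard error this gene would have for PCB153, 0.16, the interval ran from -0.12 to 0.50. For the other members that PCB153 did not list, a change of 1 or more on the log2 scale would need an unadjusted p above 0.00177, the highest listed one. For endo-polygalacturonase this allows an absolute log2 fold change of up to 1.997 under PCB153, a limit that lies under the PCB180 estimate of 3.18 but above the lower end of its interval, 1.86. For pectate lyase the limit was 1.39, against an estimate of 1.46 under PCB180. For both feruloyl esterases the limit was 1, which lies within their PCB180 intervals. None of these limits shows a difference between the congeners, and L-galactonate dehydratase is the only member with a direct test listed.

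The limits for PCB101 and PCB52 were wider. An endo-polygalacturonase change of up to 2.63 on the log2 scale under PCB101 and of up to 3.22 under PCB52 could have gone unlisted. For L-galactonate dehydratase the limit was 1 for both congeners, and for the feruloyl esterase ptg000012l.515 it was 1 for PCB101 and 1.03 for PCB52. A lack of listing under PCB52 or PCB101 therefore leaves room for changes as large as those under PCB180 for endo-polygalacturonase under PCB52, and for pectate lyase, feruloyl esterase C and the rhamnosidase domain protein under both, whose limits were 1.27 to 2.23. The other limits lie under the PCB180 estimates but within their intervals, so they show no difference between the congeners either.

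These bounds rest on the deposited standard errors, which depend on the number of libraries in the fit. Among the 75 genes with a mean normalized count of at least 500 that were listed for both congeners, the standard error for PCB180 was 1.054 times that for PCB153, with a range from 1.053 to 1.059. Over all 171 genes listed for both the range was 1.033 to 1.084, and for 9 genes listed for PCB101 it was 0.9997 to 1.003 times that for PCB153. With equal variance per library, 4 control, 5 PCB153 and 4 PCB180 libraries would give 1.054, and equal numbers would give 1. The direct comparison of L-galactonate dehydratase had 0.947 times the standard error of its PCB180 comparison, against 0.949 for 4, 5 and 4 libraries. These numbers were picked as the closest to both ratios among all combinations of 3 to 5 libraries per group. With equal control and PCB180 numbers the second ratio is also the inverse of the first. The closeness is thus no check of the numbers. The labels name 5 replicates in each group, and how many entered the authors' fit is not given in the sources used here.

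Enzymes that work beside the members were taken from lists of annotation words. Of 18 proteins matched as plant cell wall glycosidases under PCB180, 10 rose and 8 fell, beside 519 and 302 of all 11313 genes tested. The median log2 fold change of the 18 was 1.12, beside 1.23 over all 821 listed genes. Without a pair of xylanolytic activator domain proteins and an aldolase, matched through a part of their name, 8 rose and 7 fell. Without also a glycosyl hydrolase domain protein (ptg000007l.605) and 3 enzymes of 1,3-beta-glucan, a polymer that fungal walls hold as well, 5 rose and 6 fell, with a median log2 fold change of -1.01. Listed values are 1 or more in size, so the sign of such a median only follows the direction with more genes. The largest changes of this list were in 2 cellulose-binding family II proteins, ptg000012l.449 at 1.79 ± 0.53 and ptg000016l.218 at 1.72 ± 0.35, and in arabinogalactan endo-beta-1,4-galactanase (ptg000017l.287), which cuts galactan side chains of pectin, at 1.73 ± 0.43, where the authors' deposited table is the source of each log2 fold change. Arabinan endo-1,5-alpha-L-arabinosidase (ptg000008l.600), which cuts the arabinan side chains, fell, at a log2 fold change of -1.02 ± 0.36 by the authors' deposited table. It was named after its values were seen. Under PCB153 at 96 h, 4 of this list rose and 0 fell, beside 198 and 63 of all 10874 genes tested. The 4 included both cellulose-binding proteins, at 1.60 ± 0.50 and 1.30 ± 0.33, and a beta-glucosidase (ptg000008l.31), which frees glucose from cellobiose, at 1.24 ± 0.37 in the authors' deposited table. The remaining one was acetylxylan esterase (ptg000019l.518), an esterase that removes acetyl groups from xylan, at 1.09 ± 0.32 by the authors' deposited table, and it was named after its values were seen. At 24 h PCB153 listed 1 gene of this list that rose and 1 that fell, beside 4 and 2 of all 11313 genes tested.

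A further gene of the galacturonate route was among those matched by a part of the name. L-threo-3-deoxy-hexylosonate aldolase (ptg000009l.425), the step after L-galactonate dehydratase, rose 2.11-fold under PCB180, a log2 fold change of 1.08 ± 0.34 and an adjusted p, by the authors' deposited table, of 0.0242. Its interval ran from 0.41 to 1.75 and held the value of the dehydratase, 1.05. It was named after its values were seen, and it lies outside the words that chose the members. A galacturonate reductase, the first step, was annotated in 0 listed genes. An aldo/keto reductase (ptg000006l.511), of a family that includes sugar reductases but whose substrate the annotation does not name, rose 2.19-fold, 1.13 ± 0.27 on the log2 scale, and its adjusted p by the authors' deposited table was 0.00201, and it too was named after its values were seen.

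**Figure D3:**
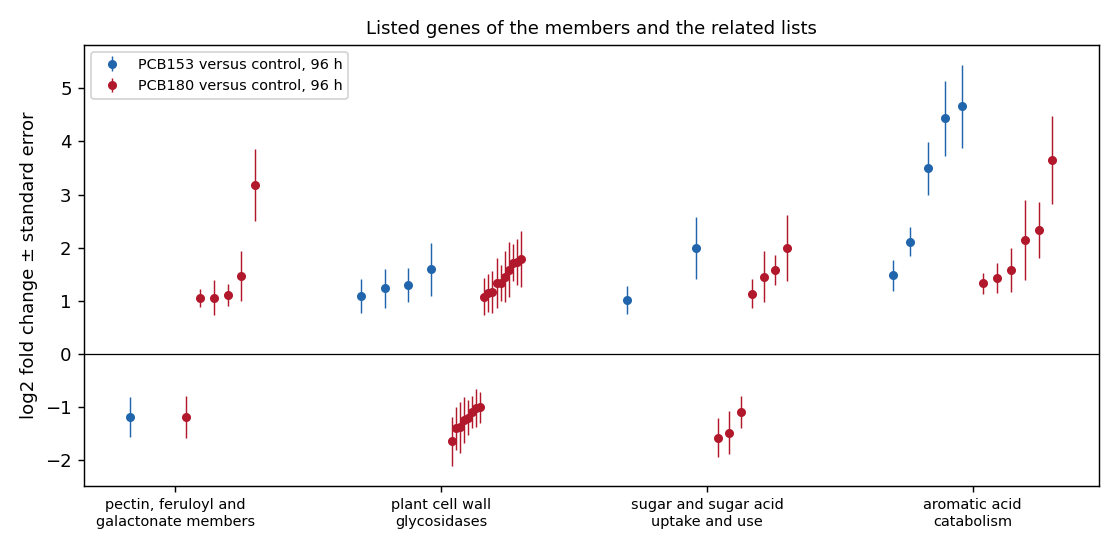
Log2 fold changes (y axis, bars are ± 1 standard error) of every listed gene among the members and the related lists (x axis), for PCB153 (blue) and PCB180 (red) against control at 96 h. The members and the aromatic acid list rose with 1 exception, the rhamnosidase domain protein, while the glycosidase and sugar lists under PCB180 lay on both sides of 0.

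Of 7 genes matched as sugar and sugar acid uptake and use under PCB180, 4 rose and 3 fell, beside 519 and 302 of all 11313 genes tested. The median log2 fold change of the 7 was 1.13, beside 1.23 over all 821 listed genes. An alpha-galactosidase that rose and a beta-galactosidase that fell, 2 of the 7, are also in the glycosidase list. The largest changes were in a galactosyl transferase of the GMA12/MNN10 family (ptg000009l.24), which adds galactose to glycans, at 1.99 ± 0.62, in galactose oxidase (ptg000002l.397), which oxidizes galactose, at -1.58 ± 0.37, and in a glucose-methanol-choline oxidoreductase (ptg000017l.623) at 1.57 ± 0.28, by log2 fold changes in the authors' deposited table. Under PCB153 at 96 h, 2 of this list rose and 0 fell, the galactosyl transferase at 1.99 ± 0.59 and the oxidoreductase at 1.01 ± 0.27 in the authors' deposited table. The words for cutinases, tannases, carboxylesterases and acetylesterases matched 0 listed genes in any comparison. The list of aromatic acid catabolism held no gene annotated for ferulic acid. It had 6 genes that rose and 0 that fell under PCB180, 5 and 0 under PCB153 and 3 and 0 under PCB101 at 96 h. Over all genes, 519 rose and 302 fell of 11313 tested under PCB180. For PCB153 these counts were 198 and 63 of 10874, and for PCB101 8 and 1 of 11313. The list's median log2 fold changes were 1.86, 3.49 and 2.44, beside 1.23, 1.44 and 1.41 over all listed genes. Since listing chose these genes, nothing is read from the counts. The 6 for PCB180 include a quinate permease, which is a transporter, and a sulfonate dioxygenase, and without these 4 rose, with a median of 2.23. This removal was chosen after the values were seen. The largest were in catabolic 3-dehydroquinase (ptg000008l.233), of quinate breakdown, at 3.65 ± 0.83 for PCB180 and 4.66 ± 0.78 for PCB153, in phenol 2-monooxygenase (ptg000007l.259), which makes catechol from phenol, at 2.33 ± 0.53 and 3.49 ± 0.50, and in an intradiol dioxygenase (ptg000021l.252), of a class that opens catechol rings, at 2.14 ± 0.75 and 4.43 ± 0.71 in the authors' deposited table. Both feruloyl esterases were listed for PCB180 alone, but whether their response differs from that of the aromatic acid genes was not tested.

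The members lie on 5 contigs of the assembly by their identifiers, made of a contig and the number of a gene on it. Endo-polygalacturonase and feruloyl esterase C are on the same contig, 22 gene numbers apart, with 0 listed genes between them. L-galactonate dehydratase has 2 listed genes within 5 gene numbers, and each of the other 5 members has 0. How many listed genes lie that near to other genes was not counted, so nothing about clustering is read from these positions. Positions in bases are not given here.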

How the data were processed

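The authors deposited tables of comparisons, limited to listed genes, with no values per sample. Per the file headers, each row holds a log2 fold change, its standard error (also log2), a test score, a p-value before and after adjustment, and the gene's mean normalized count, a non-negative signal. In the deposited tables the score is the fold change divided by the standard error. Values came from the unrounded table and annotations from the table rounded to 2 decimals. TRIzol extraction and polyA libraries are stated per the labels' protocols. Not given in the sources used here are the aligner, counter, genome build and test program.

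Members and lists were chosen with earlier results of these data known. The text names every member, and of each related list the 3 genes with the largest absolute change under PCB180 and under PCB153 at 96 h. No new test of a gene was made. The genes tested per comparison were recovered as the whole number that turns p over adjusted p into whole ranks most often (tolerance 1e-06), a step tested on simulated data. Intervals are normal 95% intervals. The standard error of a member not listed for PCB153, PCB101 or PCB52 was taken as its PCB180 value over the median ratio of standard errors, a choice made after the values were seen. For these, an unlisted gene with a change of 1 or more on the log2 scale must have had a larger p than every listed gene. Work was done in Python 3.11.15 with pandas 2.3.3 and scipy 1.17.1.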

Additional observations from a re-analysis of the deposited data

Results flagged for a closer look

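L-galactonate dehydratase (ptg000017l.227) was flagged because the authors' direct comparison of 2 congeners listed it. Its log2 fold change for PCB180 against PCB153 at 96 h in the authors' deposited table was 0.86 ± 0.16, at an adjusted p of 0.000468. It was the single gene listed in that comparison, out of 11313 tested. Its standard error was the smallest of the 821 genes listed for PCB180, so this listing does not make its difference the largest. The intradiol dioxygenase ptg000021l.252, not listed there, had 2.14 ± 0.75 for PCB180 and 4.43 ± 0.71 for PCB153 against control in the authors' deposited table. Since listing chose the members, these values are a description and no independent test.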

How the results depend on the processing

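Of the 5 members that rose under PCB180, 3 had an adjusted p under 0.01 and under 0.001, namely endo-polygalacturonase, the feruloyl esterase ptg000012l.515 and L-galactonate dehydratase. When the log2 fold change had to be 1.5 or more in size, or 2 or more, 1 was left, endo-polygalacturonase. The median over all 519 listed genes that rose was 1.59, so a limit of 1.5 removed a larger part of the members than of those genes. How many of all listed genes pass the other stricter limits was not counted. Leaving out the feruloyl and rhamnosidase words removes both feruloyl esterases and the rhamnosidase domain protein by definition, and 3 of the 5 that rose were left. That count therefore tests nothing. The fall of the rhamnosidase domain protein, under PCB180 and under PCB153, counted 0 under each of the stricter limits on adjusted p and on log2 fold change. Leaving out the lowest 25% of listed genes, with mean normalized counts up to 77.5, 4 rose, since pectate lyase was lost, and the use of first annotations only changed no count. The median log2 fold change of the members under PCB180 was 1.08, and 1.06 without endo-polygalacturonase. The difference of 0.0085 for the rhamnosidase domain protein had intervals from -1.07 to 1.08 with a correlation of 0 and from -0.47 to 0.49 with 0.8. The direct comparison gave no value for this protein. With the standard error of PCB180 itself, the PCB153 limit of endo-polygalacturonase was 2.11 and that of pectate lyase 1.46. No paired analysis was possible because the tables hold no values per sample, and for the same reason no replicate was left out in turn. Library depth is unknown.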

Other observations

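The aldo/keto reductase ptg000006l.511 has the gene number just before that of a protein annotated with a C2H2-type and a xylanolytic transcriptional activator domain (ptg000006l.512), which rose by a log2 fold change of 1.34 ± 0.34 under PCB180 at 96 h in the authors' deposited table. A second protein with the xylanolytic activator domain (ptg000003l.466), a domain shared by many fungal regulators, fell, at -1.20 ± 0.32 by the authors' deposited table. Enzymes of other wall polymers that rose under PCB180 included a mannan endo-1,4-beta-mannosidase (ptg000009l.29) at 1.33 ± 0.47 and an alpha-galactosidase (ptg000009l.669) at 1.45 ± 0.48, while a beta-galactosidase (ptg000010l.462) had a log2 fold change of -1.10 ± 0.30 in the authors' deposited table. These genes were named after their values were seen.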
